A study of Homo sapiens with 10 samples.

Results

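The lysosome genes described here were 34 genes taken by symbol from a table of 23284 genes measured in K562 cells, a human line derived from a chronic myeloid leukemia in blast crisis. They comprised 4 lysosomal membrane proteins, 7 proteases, 8 glycosidases, 3 sulfatases, 6 proteins of lipid handling, the channel MCOLN1 with CLN3 and GRN, the transcription factors TFEB and TFE3, and the autophagy receptor SQSTM1. All 34 had a row in the table, and all 34 passed the requirement of a mean of at least 0.5 FPKM (fragments scaled by transcript length and by mapped reads), which 12788 genes met. The list was defined by symbol, and it was chosen with earlier results of these data known.

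K562 cells grown in serum-containing medium were exposed for 48 h to the vehicle DMSO, to CBP30 at 2 or 5 µM, or to I-CBP112 at 2 or 5 µM. Each of the 5 conditions had 2 biological replicates, giving 10 samples, and polyadenylated RNA was sequenced from each. All groups were the same unmodified line, which carries BCR-ABL1, and no group had a genetic alteration of its own. CBP30 and I-CBP112 are chemically distinct inhibitors, one built on a benzimidazole and the other on an oxazepine ring system, and both occupy the acetyl-lysine pocket of the bromodomains of the acetyltransferases CREBBP and EP300. In bulk samples of this kind, a different number of cells in a given state and a different amount of RNA per cell cannot be told apart.

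Lysosomes degrade proteins, glycans, lipids and nucleic acids delivered by endocytosis and autophagy, using acid hydrolases that act one after another on each substrate. Most soluble hydrolases are tagged with mannose phosphate in the Golgi, and loss of a single enzyme leads to a storage disease. TFEB and TFE3, basic helix-loop-helix factors of the MiT/TFE family, bind E-box motifs in the promoters of many of these genes when they are released from mTORC1-dependent retention in the cytoplasm.

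The sums of FPKM over all genes ranged from 547504 to 689095 per sample, and the relative depth read from the lowest values ranged from 0.925 to 1.08. Replicate 1 of 2 µM CBP30 stood apart from the other samples: its change from DMSO correlated with transcript length across genes (rho = -0.463), which put the shortest genes, in quintiles of length, at a median log2 change of 0.29 and the longest at -0.29. Both 5 µM CBP30 samples had a weaker trend of the opposite sign (rho = 0.192 each), with medians near -0.12 in the shortest and 0.12 in the longest genes. Of the 34 lysosome genes, 28 were higher in replicate 1 of 2 µM CBP30 than in its replicate 2, a count without its share over all tested genes. The median absolute difference between these 2 replicates was 0.24 on the log2 scale over the 34 genes and 0.20 over all tested genes. In the other conditions it was 0.048 to 0.063 over the 34 genes and 0.051 to 0.073 over all tested genes. Counts that rest on replicate 1 of 2 µM CBP30 are given with and without it. The lysosome genes had a median transcript length of 3062 bases, against 3294 bases for the tested genes. Results with each sample's trend with transcript length removed are given below. Whether transcript length caused a part of the 2 µM result was not tested.

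The fetal and embryonic hemoglobin genes, GATA1 and the other K562 erythroid markers were abundant, with a summed level of 1897 and 1946 FPKM in the DMSO samples for all 9 genes of that list. The CBP30 samples had lower sums, 696 to 907 FPKM at 2 µM and 624 to 651 FPKM at 5 µM, and the I-CBP112 samples had 1134 to 1253 and 1086 to 1176 FPKM at these doses. Of the 9 genes, 8 fell and TAL1 rose with 5 µM CBP30, 7 fell with 2 µM CBP30, 4 with 5 µM and 1 with 2 µM I-CBP112 (limma, adjusted p under 0.05). Over all tested genes, 25.4% fell and 21.2% rose with 5 µM CBP30. The shares that fell were 16.3% with 2 µM CBP30, 3.28% with 5 µM I-CBP112 and 0.735% with 2 µM I-CBP112. Among 8 monocyte and macrophage markers only LYZ, the gene of lysozyme, and ITGAM were above the expression limit. The summed level of these 8 markers was 39.9 to 40.4 FPKM with DMSO, 48.0 to 49.4 and 46.2 to 48.7 FPKM with 2 and 5 µM CBP30, and 48.8 to 49.6 and 54.1 to 54.2 FPKM with 2 and 5 µM I-CBP112, nearly all of it LYZ, while CD14, CSF1R, MPO, MRC1, CD163 and FCGR3A did not exceed 0.183 FPKM in any sample. The summed level of 8 megakaryocyte markers was 3.43 to 3.53 FPKM with DMSO, 1.55 to 1.66 and 1.56 to 1.77 FPKM with 2 and 5 µM CBP30, and 3.14 to 3.85 and 2.79 to 2.88 FPKM with 2 and 5 µM I-CBP112, and GP9 and PF4 were listed at 0 throughout. With 5 µM CBP30, LYZ rose by 0.27 (adjusted p = 0.00306, limma), ITGAM fell by 0.33 (adjusted p = 0.0311) and the megakaryocyte gene ITGA2B fell by 1.27 (adjusted p = 2.84e-05). ITGA2B, at a mean of 2.52 FPKM with DMSO, made up most of the megakaryocyte sum there. GP1BA, the other megakaryocyte marker above the expression limit, was not called and did not fall (0.12, adjusted p = 0.377, limma). The part of these marker changes in the results below was not tested.

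In DMSO-treated K562 cells the most abundant of the lysosome genes per transcript length were CD63, PSAP and LAMP2, at means of 253, 224 and 156 FPKM, and the least abundant were TFEB at 1.85 FPKM and LIPA at 0.705 FPKM. Their levels summed to 1491 and 1502 FPKM in the 2 DMSO samples, which was 0.242% and 0.246% of all FPKM. With 5 µM CBP30 the sum was 1990 and 2009 FPKM, or 0.363% and 0.364%. With 2 µM CBP30 it was 1899 and 1658 FPKM (0.276% and 0.274%), with 2 µM I-CBP112 it was 1521 and 1561 FPKM (0.256% and 0.252%), and with 5 µM I-CBP112 it was 1681 and 1615 FPKM (0.276% and 0.266%). The share was thus highest in both 5 µM CBP30 samples, and no treated sample was as low as DMSO.

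**Figure D1:**
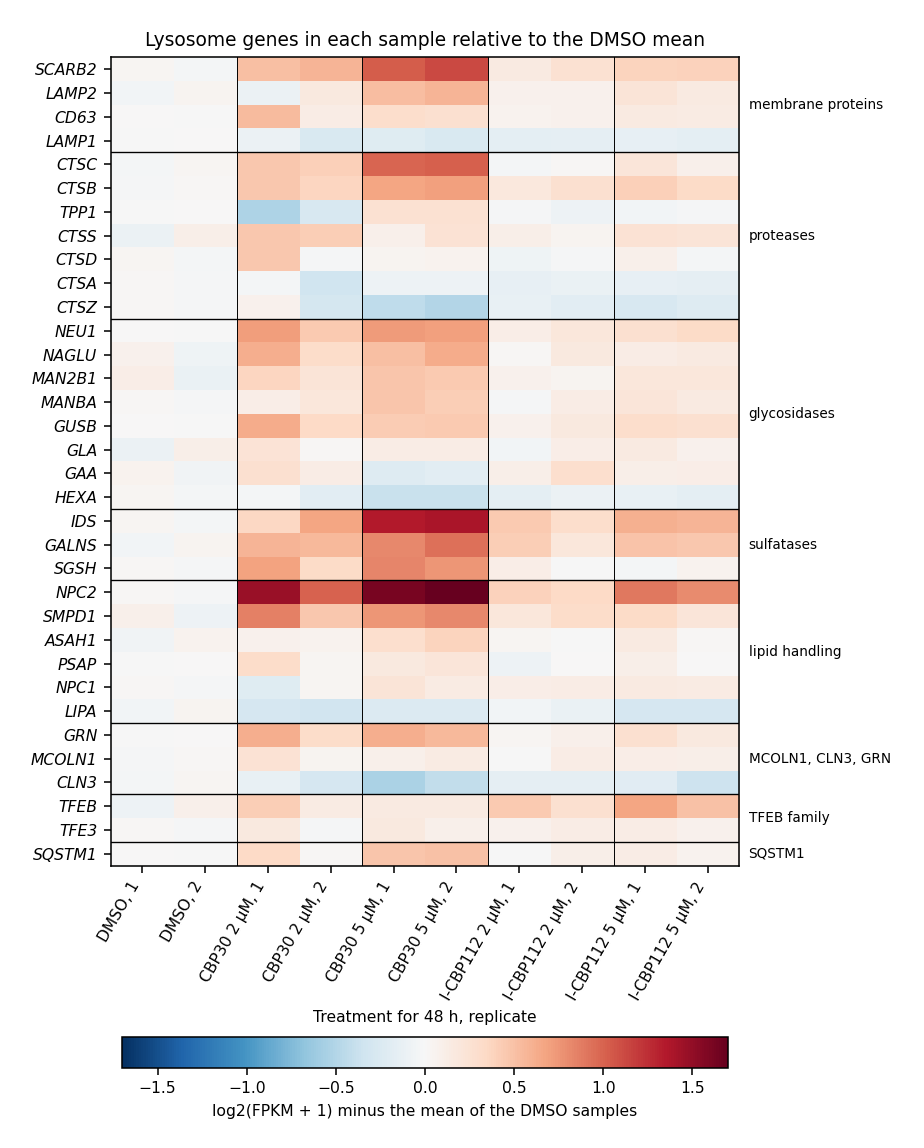
Each of the 34 lysosome genes (rows, grouped by role) in each of the 10 samples (columns), colored by log2(FPKM + 1) minus the mean of the 2 DMSO samples. Red marks higher and blue lower expression. NPC2 and IDS are the darkest rows with 5 µM CBP30. LAMP1, CTSZ, HEXA, LIPA and CLN3, called lower, are blue there, as are GAA and, faintly, CTSA, which were not called against DMSO.

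The first question was how CREBBP/EP300 bromodomain inhibition with CBP30 changed these genes. With 5 µM CBP30, 18 of the 34 lysosome genes rose and 5 fell relative to DMSO, while 21.2% of all 12788 tested genes rose and 25.4% fell (limma on log2(FPKM + 1), Benjamini-Hochberg adjusted p under 0.05 over all tested genes). The genes that rose spanned enzymes, membrane proteins and lipid handling, led by NPC2, IDS, SCARB2 and CTSC. The median log2 fold change of the 34 genes was 0.31, against -0.0096 over all tested genes, and with each sample's trend with transcript length removed it was 0.41, against 0.0085. Both treated samples lay above both DMSO samples for 26 genes and below for 7, where 39.5% and 42.6% of all tested genes did so. Each condition had 2 replicates, and the p-values rest on a spread between replicates that was estimated for each gene over all 10 samples. The 2 µM CBP30 replicates, which differed more than those of any other condition, thus also enter the p-values of comparisons without them. For fits that leave out a sample, shares over all tested genes were not computed. Their counts, here and below, show how far calls depend on a sample and do not set the list against other genes. Fold changes on this scale understate the changes of genes with low values. Leaving out any single sample gave 17 to 22 genes higher and 2 to 7 lower. The lower count was 3 without either DMSO sample or replicate 1 of 5 µM CBP30, and 2 without its replicate 2.

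Among the membrane proteins, SCARB2, the receptor that carries glucocerebrosidase to the lysosome, changed most. SCARB2 (chromosome 4, 77079890 to 77155689 of GRCh37, minus strand) measured 12.2 and 11.7 FPKM with DMSO, 17.5 and 18.4 at 2 µM and 25.4 and 27.2 at 5 µM of CBP30, and 13.4 and 14.5 at 2 µM and 15.9 and 16.0 at 5 µM of I-CBP112 (replicates 1 and 2, an order kept below). All 8 treated samples were above both DMSO samples, and the CBP30 samples at each dose were above the I-CBP112 samples of the same dose. The gene rose 2.2-fold with 5 µM CBP30 (log2 fold change 1.07, SE 0.060, adjusted p = 2.27e-05, limma) and 1.5-fold with 2 µM (0.54, SE 0.060, adjusted p = 0.000985). LAMP2, a heavily glycosylated protein of the lysosomal membrane that also serves in chaperone-mediated autophagy, rose with 5 µM CBP30 by a log2 fold change of 0.55 (SE 0.088, adjusted p = 0.00211), from 151 and 161 to 224 and 233 FPKM.

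LAMP1, the closest relative of LAMP2 in structure and place, moved the other way. LAMP1 (chromosome 13, 113951554 to 113977987, plus strand) measured 50.4 and 50.5 FPKM with DMSO, 47.1 and 41.9 at 2 µM and 43.5 and 42.0 at 5 µM of CBP30, and 45.0 and 45.1 at 2 µM and 45.8 and 44.7 at 5 µM of I-CBP112. Every treated sample was below both DMSO samples, by a narrow margin. The gene fell by 0.23 on the log2 scale with 5 µM CBP30 (SE 0.061, adjusted p = 0.0168, limma), and its changes with the other treatments, -0.18 with 2 µM CBP30, -0.16 with 2 µM I-CBP112 and -0.15 with 5 µM I-CBP112, did not pass the test. The LAMP1 call was lost when either DMSO or either 5 µM CBP30 sample was left out, with an adjusted p of up to 0.0968. CD63, a tetraspanin of late endosomes and lysosomes and the most abundant gene of the list, was not called in any comparison, with a log2 fold change of 0.29 with 5 µM CBP30 (95% confidence interval 0.02 to 0.56, adjusted p = 0.0785).

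Of the proteases, CTSC, CTSB and TPP1 rose with 5 µM CBP30 and CTSZ fell. CTSC, a dipeptidyl peptidase that activates granule serine proteases (chromosome 11, 87998237 to 88092852, minus strand), measured 87.4 and 91.3 FPKM with DMSO, 123 and 119 at 2 µM and 178 and 182 at 5 µM of CBP30, and 87.6 and 90.8 at 2 µM and 103 and 95.3 at 5 µM of I-CBP112. Its level followed the CBP30 dose, while the 2 µM I-CBP112 samples overlapped DMSO. CTSC doubled with 5 µM CBP30 to 2.02 times the DMSO mean (log2 fold change 1.00, SE 0.057, adjusted p = 2.46e-05, limma) and rose by 0.43 with 2 µM (adjusted p = 0.00198). With I-CBP112 the log2 fold change of CTSC was 0.15 at 5 µM (95% confidence interval 0.02 to 0.28, adjusted p = 0.179).

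CTSB, a broadly acting cysteine cathepsin (chromosome 8, 11700033 to 11727042, minus strand), measured 50.6 and 52.3 FPKM with DMSO, 71.1 and 66.8 at 2 µM and 82.3 and 83.9 at 5 µM of CBP30, and 58.2 and 62.3 at 2 µM and 68.3 and 64.6 at 5 µM of I-CBP112. All treated samples were above DMSO. CTSB rose by 0.68 (SE 0.058, adjusted p = 0.000131) and 0.41 (adjusted p = 0.00249) with 5 and 2 µM CBP30, and by 0.36 with 5 µM I-CBP112 (SE 0.058, adjusted p = 0.0138), all from limma.

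TPP1 and CTSS behaved differently at the 2 CBP30 doses and are named after their values were seen. TPP1, a tripeptidyl peptidase, measured 44.4 and 45.1 FPKM with DMSO, 30.8 and 36.7 with 2 µM CBP30, and 53.5 in both 5 µM CBP30 samples. It fell by 0.40 on the log2 scale at 2 µM (SE 0.078, adjusted p = 0.0091, limma) and rose by 0.25 at 5 µM (SE 0.078, adjusted p = 0.0327), the only gene of the list called in opposite directions. The rise lost its call in 8 of the 10 fits that left out a sample, with an adjusted p of up to 0.131, more often than any other of the 18 rises. CTSS, the cathepsin of antigen processing, rose at 2 µM CBP30 (log2 fold change 0.44, adjusted p = 0.00834) and its change at 5 µM did not pass the test (0.16, 95% confidence interval -0.03 to 0.36, adjusted p = 0.151).

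CTSZ, a carboxypeptidase-type cathepsin, fell by 0.47 on the log2 scale with 5 µM CBP30 (SE 0.11, adjusted p = 0.0115, limma), from 36.0 and 35.1 to 26.1 and 24.8 FPKM. The CTSZ call was lost without replicate 1 of DMSO and without replicate 2 of 5 µM CBP30, with an adjusted p of up to 0.0712. CTSZ shares 2141 exon bases with NELFCD on the opposite strand, and whether strand was used in counting is not given in the sources used here. CTSD, the aspartic protease of the lysosome, and CTSA, the carboxypeptidase that protects NEU1, were called with no treatment. Their log2 fold changes with 5 µM CBP30 were 0.051 and -0.088, and those of CTSA were negative with all 4 treatments.

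Glycosidases remove sugars from glycoproteins, glycolipids and glycosaminoglycans one residue at a time. With 5 µM CBP30, 5 of the 8 rose and 1 fell, beside 21.2% and 25.4% of all tested genes. NEU1, the lysosomal sialidase (chromosome 6, 31825436 to 31830682, minus strand), measured 36.7 and 36.6 FPKM with DMSO, 60.8 and 50.3 at 2 µM and 61.2 and 60.2 at 5 µM of CBP30, and 39.8 and 42.2 at 2 µM and 44.3 and 46.3 at 5 µM of I-CBP112. Every treated sample was above DMSO, with the CBP30 samples highest. NEU1 rose by 0.71 at 5 µM CBP30 (SE 0.085, adjusted p = 0.000562, limma) and by 0.58 at 2 µM (adjusted p = 0.00296), and its change of 0.30 with 5 µM I-CBP112 did not pass the test (95% confidence interval 0.10 to 0.50, adjusted p = 0.0859).

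The other glycosidases that rose with 5 µM CBP30 were NAGLU, which acts on heparan sulfate, with a log2 fold change of 0.57, the mannosidases MAN2B1 (0.46) and MANBA (0.44), and the beta-glucuronidase GUSB (0.44). Their adjusted p-values by limma ranged from 0.00139 to 0.0064. HEXA, the alpha subunit of beta-hexosaminidase, fell from 54.8 and 52.7 to 40.9 and 41.1 FPKM, a log2 fold change of -0.38 (SE 0.060, adjusted p = 0.00191). GLA, the alpha-galactosidase deficient in Fabry disease, and GAA, which degrades glycogen, were not called against DMSO, with log2 fold changes of 0.13 and -0.20.

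The 3 sulfatases, which strip sulfate from glycosaminoglycans, all rose with both CBP30 doses. Over all tested genes, 21.2% rose with 5 µM and 15.9% with 2 µM CBP30. IDS, the sulfatase of dermatan and heparan sulfate (chromosome X, 148558519 to 148602635, minus strand), measured 31.3 and 30.03 FPKM with DMSO, 39.3 and 49.5 at 2 µM and 79.5 and 82.1 at 5 µM of CBP30, and 42.0 and 37.9 at 2 µM and 47.2 and 46.3 at 5 µM of I-CBP112. The 5 µM CBP30 samples stood clear of every other sample, and all treated samples were above DMSO. IDS rose 2.64-fold with 5 µM CBP30 (log2 fold change 1.37, SE 0.10, adjusted p = 7.89e-05, limma), 1.45-fold with 2 µM CBP30 (adjusted p = 0.0109) and 1.52-fold with 5 µM I-CBP112 (adjusted p = 0.0192). A gene known by identifier alone shares 6877 exon bases with IDS on the same strand, so its reads may be split.

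GALNS, which acts on keratan and chondroitin sulfate (chromosome 16, 88880142 to 88923378, minus strand), measured 4.51 and 4.91 FPKM with DMSO, 7.54 and 7.39 at 2 µM and 9.02 and 9.90 at 5 µM of CBP30, and 6.65 and 5.504 at 2 µM and 7.01 and 6.83 at 5 µM of I-CBP112. All treated samples were higher than DMSO. The log2 fold changes of GALNS were 0.87 (SE 0.088, adjusted p = 0.000275) with 5 µM CBP30, 0.57 (adjusted p = 0.0038) with 2 µM CBP30 and 0.47 (adjusted p = 0.024) with 5 µM I-CBP112 by limma.

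SGSH, the sulfamidase of heparan sulfate (chromosome 17, 78180515 to 78194722, minus strand), measured 4.38 and 4.23 FPKM with DMSO, 7.51 and 5.64 at 2 µM and 8.43 and 7.96 at 5 µM of CBP30, and 4.72 and 4.26 at 2 µM and 4.18 and 4.54 at 5 µM of I-CBP112. The CBP30 samples were above all others, whereas the I-CBP112 samples overlapped DMSO at both doses. SGSH rose by 0.79 with 5 µM CBP30 (SE 0.12, adjusted p = 0.0014, limma) and by 0.50 with 2 µM (adjusted p = 0.0171), while the change with 5 µM I-CBP112 was 0.014 (95% confidence interval -0.26 to 0.29, adjusted p = 0.973).

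The largest change of the whole list was in NPC2, the soluble protein that binds cholesterol in the lysosome lumen and hands it to NPC1. NPC2 (chromosome 14, 74942895 to 74960880, minus strand) measured 19.3 and 18.7 FPKM with DMSO, 54.2 and 39.2 at 2 µM and 60.4 and 63.4 at 5 µM of CBP30, and 25.3 and 24.3 at 2 µM and 36.2 and 33.8 at 5 µM of I-CBP112. None of the 5 groups overlapped another for this gene. NPC2 rose 3.26-fold with 5 µM CBP30 (log2 fold change 1.65, SE 0.13, adjusted p = 0.000103, limma), 2.46-fold with 2 µM CBP30 (1.24, adjusted p = 0.00088) and 1.84-fold with 5 µM I-CBP112 (0.85, adjusted p = 0.0129). With 2 µM I-CBP112 the change was 0.37 (95% confidence interval 0.05 to 0.68, adjusted p = 0.277).

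NPC1, the membrane partner of NPC2, was not called against DMSO, with a log2 fold change of 0.18 at 5 µM CBP30 (95% confidence interval 0.00 to 0.36, adjusted p = 0.0915, limma). SMPD1, the acid sphingomyelinase (chromosome 11, 6411670 to 6416228, plus strand), measured 9.23 and 8.00 FPKM with DMSO, 16.5 and 12.2 at 2 µM and 15.2 and 15.8 at 5 µM of CBP30, and 9.97 and 10.96 at 2 µM and 11.02 and 10.1 at 5 µM of I-CBP112. All 4 CBP30 samples were above every DMSO and I-CBP112 sample. SMPD1 rose by 0.78 with 5 µM CBP30 (SE 0.13, adjusted p = 0.00283) and by 0.66 with 2 µM (adjusted p = 0.0108).

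ASAH1, the acid ceramidase that acts on the product of SMPD1, rose with 5 µM CBP30 by 0.33 (SE 0.065, adjusted p = 0.00528, limma), and its change at 2 µM, 0.065, did not pass the test (adjusted p = 0.473). PSAP, the precursor of the saposins that assist sphingolipid hydrolysis, was high in every sample, between 211 and 278 FPKM, and was called with no treatment. LIPA, the acid lipase for cholesteryl esters and triglycerides, was at the edge of expression. LIPA measured 0.644 and 0.767 FPKM with DMSO and 0.445 and 0.449 with 5 µM CBP30. It fell on the log2 scale by 0.24 with 5 µM CBP30 (adjusted p = 0.043, limma) and by 0.30 with 2 µM (adjusted p = 0.0255). Its means were 0.705 FPKM with DMSO and 0.610 with 2 µM I-CBP112, and 0.381 to 0.447 FPKM in the other groups. LIPA thus passed the limit of 0.5 FPKM only through the groups where it was high, which weakens its calls. It is included in the counts of 5 genes lower at 5 µM and 2 lower at 2 µM. The 5 µM call of LIPA was kept in 10 of 19 alternative fits, with an adjusted p of up to 0.2.

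MCOLN1, the calcium channel of the lysosomal membrane, was called with no treatment and stayed between 9.21 and 11.3 FPKM in all samples. CLN3, a membrane protein whose loss causes a juvenile form of Batten disease, fell with 5 µM CBP30 from 22.0 and 23.1 to 15.2 and 16.6 FPKM (log2 fold change -0.48, SE 0.080, adjusted p = 0.00255, limma), the lowest log2(FPKM + 1) change on the list. In FPKM, CLN3 was at 70.4% of the DMSO mean and LIPA, whose low values the added 1 compresses, at 63.4%. CLN3 shares 548 exon bases with APOBR on the other strand.

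GRN, the precursor of the granulins (chromosome 17, 42422614 to 42430474, plus strand), measured 56.0 and 56.5 FPKM with DMSO, 87.0 and 70.4 at 2 µM and 86.7 and 82.6 at 5 µM of CBP30, and 57.8 and 59.97 at 2 µM and 68.0 and 63.1 at 5 µM of I-CBP112. All treated samples were above DMSO, the CBP30 samples the most. GRN rose by 0.58 with 5 µM CBP30 (SE 0.096, adjusted p = 0.00244, limma) and by 0.47 with 2 µM (adjusted p = 0.0111).

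Of the regulators, neither was called with CBP30. TFEB (chromosome 6, 41651716 to 41703997, minus strand) was expressed at low levels, with 1.69 and 2.01 FPKM with DMSO, 2.79 and 2.13 at 2 µM and 2.16 and 2.15 at 5 µM of CBP30, and 2.89 and 2.45 at 2 µM and 3.54 and 2.998 at 5 µM of I-CBP112. The highest values were those with 5 µM I-CBP112. TFEB was called only in that comparison with DMSO (log2 fold change 0.58, SE 0.12, adjusted p = 0.0347, limma), and its change with 5 µM CBP30 was 0.15 (95% confidence interval -0.14 to 0.44, adjusted p = 0.347). The TFEB call with I-CBP112 was lost in 10 of 19 alternative fits, with an adjusted p of up to 0.204.

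TFE3 (chromosome X, 48886237 to 48900936, minus strand) stayed within a narrow range, with 13.4 and 13.1 FPKM with DMSO, 14.9 and 13.0 at 2 µM and 15.0 and 14.1 at 5 µM of CBP30, and 13.9 and 14.4 at 2 µM and 14.6 and 14.0 at 5 µM of I-CBP112. No TFE3 comparison passed the test, and its log2 fold change with 5 µM CBP30 was 0.13 (95% confidence interval -0.04 to 0.30, adjusted p = 0.189, limma). RNA levels do not show where in the cell these factors were.

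SQSTM1, which links ubiquitinated cargo to the autophagosome (chromosome 5, 179233398 to 179265078, plus strand), measured 65.6 and 64.6 FPKM with DMSO, 82.9 and 65.8 at 2 µM and 90.6 and 92.04 at 5 µM of CBP30, and 65.1 and 70.0 at 2 µM and 71.3 and 68.1 at 5 µM of I-CBP112. The 5 µM CBP30 samples were the highest. SQSTM1 rose by 0.48 with 5 µM CBP30 (SE 0.10, adjusted p = 0.00692, limma) and was not called with the other treatments. It shares 1384 exon bases with MRNIP on the opposite strand.

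**Figure D2:**
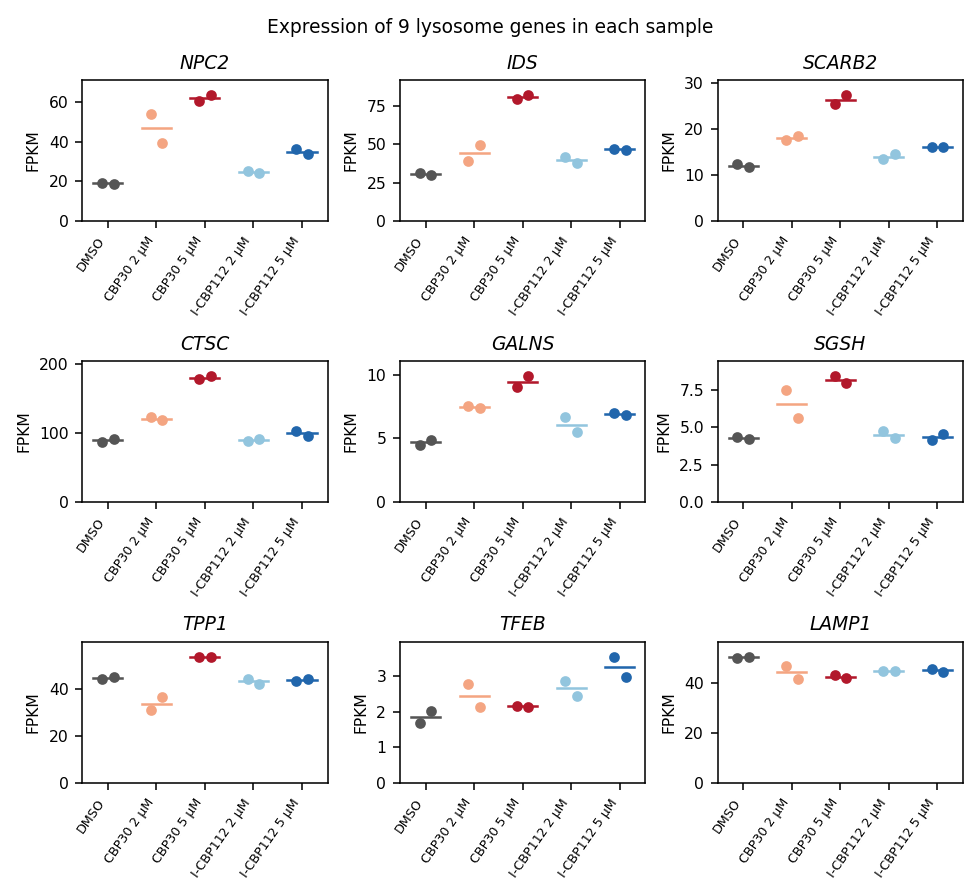
FPKM (linear axes from 0) of 9 lysosome genes in each sample, with a point per replicate and a line at the mean of the 2 replicates of each condition. SCARB2, CTSC and IDS step up with CBP30 dose, the I-CBP112 samples overlap DMSO for SGSH, TPP1 is below DMSO at 2 µM and above it at 5 µM CBP30, and TFEB is highest with 5 µM I-CBP112.

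With 2 µM CBP30, 14 of the 34 genes rose and 2 fell, where 15.9% of all tested genes rose and 16.3% fell. The median log2 fold change was 0.21, against 0.0051 over all tested genes. With each sample's trend with transcript length removed it was 0.18, against -0.0036. Both samples were above DMSO for 22 genes and below for 6 (31.4% and 30.5% of all tested genes). CTSB, CTSC, GUSB, NEU1, NPC2, SMPD1, GALNS, IDS, MAN2B1, SGSH, NAGLU, SCARB2 and GRN, 13 genes in all, were called higher at both CBP30 doses, which were compared with the same DMSO samples. In a fit of the 2 µM CBP30 and DMSO samples alone, none of the 2 µM calls was kept (NPC2, adjusted p = 0.0688; IDS, adjusted p = 0.135, limma). LAMP2, ASAH1, MANBA and SQSTM1 were called higher at 5 µM alone among the 2 doses. Without replicate 1 of 2 µM CBP30, the sample that stood apart, 15 genes were called higher and 7 lower. Without its replicate 2 the counts were 22 and 3, and without replicate 1 or 2 of DMSO 9 or 7 genes were called higher and 2 or 0 lower.

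The second question was whether the 2 doses of CBP30 differed. With 5 µM, 11 of the 34 genes were higher than with 2 µM and 5 were lower, against 17.6% and 21.3% of all tested genes (limma, adjusted p under 0.05). The largest differences were in IDS, at 0.86 on the log2 scale (SE 0.10, adjusted p = 0.00252), TPP1 at 0.65 (SE 0.078, adjusted p = 0.00248), CTSC at 0.57 (SE 0.057, adjusted p = 0.00142), SCARB2 at 0.53 (SE 0.060, adjusted p = 0.00205) and LAMP2 at 0.52 (SE 0.088, adjusted p = 0.00721). NPC2 was higher at 5 µM by 0.42 (adjusted p = 0.0434), and CTSB, GALNS, MANBA, ASAH1 and NPC1 by 0.26 to 0.31. CTSZ, CTSS, GAA, HEXA and CLN3 were lower at 5 than at 2 µM, by -0.28 to -0.40. Of these dose calls, GALNS was kept in 8, NPC2 in 9, and NPC1 and CTSZ in 10 of 20 alternative fits, with adjusted p-values of up to 0.17, 0.212, 0.207 and 0.213, and no dose call was kept in a fit of the CBP30 samples alone.

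The means rose in the order DMSO, 2 µM and 5 µM CBP30 for 18 genes and fell in that order for LAMP1, CTSZ, HEXA and CLN3. The shares of all tested genes with these orders were not computed. NEU1, GRN, SMPD1 and NAGLU were each called at both doses, and the differences between the doses did not pass the test: the difference was 0.13 for NEU1 (95% confidence interval -0.07 to 0.33) and 0.11 for GRN (-0.11 to 0.34). Without replicate 1 of 2 µM CBP30, 17 genes were higher and 3 lower at 5 µM, and without its replicate 2 the counts were 10 and 9. Without replicate 1 or 2 of 5 µM CBP30, 5 or 4 were higher and 0 lower, and without any 1 of the other samples 2 or 3 were lower.

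Fewer of the genes were called with I-CBP112. With 5 µM I-CBP112, 6 of 34 rose, namely NPC2, IDS, TFEB, GALNS, SCARB2 and CTSB, and none fell, while 3.84% of all tested genes rose and 3.28% fell (limma, adjusted p under 0.05). At an unadjusted p under 0.05, 11 were higher and 4 lower. The share of all tested genes at that cutoff was not computed, so these 2 counts cannot be set against the percentages above. The median log2 fold change was 0.14, against -0.0042 over all tested genes, and both samples were above DMSO for 22 genes and below for 7 (30.5% and 33.7% of all tested genes). SCARB2 rose by 0.39 (SE 0.060, adjusted p = 0.0126), beside the NPC2, IDS, TFEB, GALNS and CTSB values given above. With quantile normalization of the samples 8 rose and 1 fell. No call among the 34 remained without either DMSO or either 5 µM I-CBP112 sample. More were called, in both directions, without either replicate of 2 µM CBP30, whose difference enters the spread for every gene.

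With 2 µM I-CBP112 no gene of the list passed the test, where 0.868% of all tested genes rose and 0.735% fell (limma). At an unadjusted p under 0.05, 7 were higher and 1 was lower, without a share over all tested genes at that cutoff. The median log2 fold change was 0.063, against -0.0037 over all tested genes, and both samples were above DMSO for 15 genes and below for 6 (25% and 28.3% of all tested genes). The largest values were those of IDS and NPC2, at 0.37 each, and TFEB at 0.36, with adjusted p-values between 0.168 and 0.277. A few genes were called without either replicate of 2 µM CBP30, whose difference enters the spread for every gene. The 2 doses of I-CBP112 did not differ past the test for any gene of the list by limma, and 0.0547% of all tested genes were higher and 0.00782% lower at 5 µM. At an unadjusted p under 0.05, 4 were higher and 1 lower, again without a share over all tested genes. The means rose in the order DMSO, 2 µM and 5 µM I-CBP112 for 22 of the 34 genes. How many of all tested genes had this order was not computed, so the count is no measure of a dose response.

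**Figure D3:**
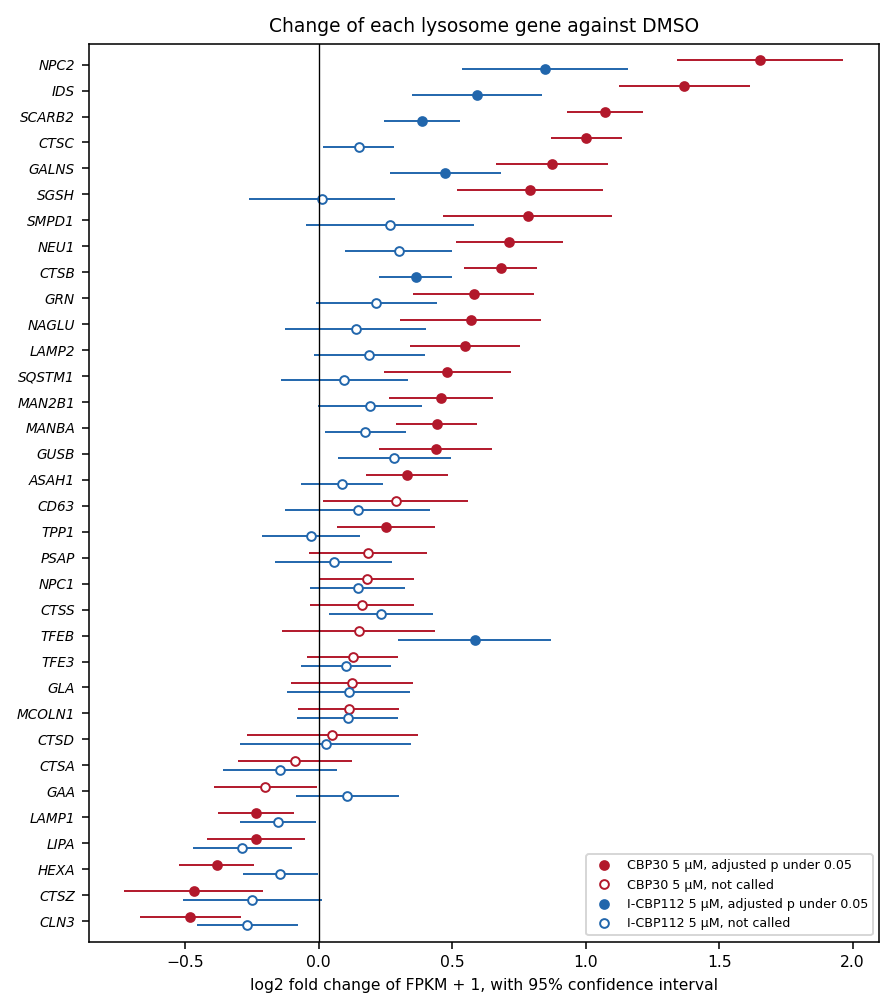
Log2 fold change of FPKM + 1 against DMSO for each of the 34 lysosome genes with 5 µM CBP30 (red) and 5 µM I-CBP112 (blue), with bars for the 95% confidence interval from limma and filled points for an adjusted p under 0.05. With CBP30, 18 filled points lie to the right of 0 and 5 to the left, and with I-CBP112 6 lie to the right, TFEB among them.

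The third question was whether the 2 inhibitors differed at the same dose, which gave 2 direct comparisons. At 5 µM, 17 of the 34 genes were higher with CBP30 than with I-CBP112 and 3 were lower, against 13.6% and 17.9% of all tested genes (limma, adjusted p under 0.05 over all tested genes). The differences were largest for CTSC, at 0.85 on the log2 scale (SE 0.057, adjusted p = 0.00014), NPC2 at 0.81 (SE 0.13, adjusted p = 0.00465), SGSH at 0.78 (SE 0.12, adjusted p = 0.00317), IDS at 0.78 (SE 0.10, adjusted p = 0.00208) and SCARB2 at 0.69 (SE 0.060, adjusted p = 0.000398). SMPD1, NAGLU, NEU1, GALNS, SQSTM1, GRN, LAMP2, CTSB, TPP1, MANBA, MAN2B1 and ASAH1 were higher with CBP30 by 0.24 to 0.52. TFEB, GAA and HEXA were lower with CBP30 than with I-CBP112, TFEB by -0.43 (SE 0.12, adjusted p = 0.0333).

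For the remaining 14 genes a difference between the inhibitors at 5 µM did not pass the test, and several of these intervals still allowed sizable differences. The difference was 0.14 for CD63 (95% confidence interval -0.13 to 0.41), 0.13 for PSAP (-0.09 to 0.35), -0.081 for LAMP1 (-0.22 to 0.06) and 0.023 for TFE3 (-0.15 to 0.19). Without replicate 1 or 2 of 5 µM CBP30, 7 or 5 genes were higher with CBP30, and without replicate 1 or 2 of 5 µM I-CBP112, 7 or 6, with 0 lower in each case. Without either sample of 2 µM CBP30, whose difference enters the spread for every gene, both counts were larger than in the main fit.

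At 2 µM, 8 genes were higher with CBP30 and 1 was lower, against 7.13% and 8.45% of all tested genes. NPC2 differed by 0.87 on the log2 scale (SE 0.13, adjusted p = 0.00887, limma), SGSH by 0.45 (SE 0.12, adjusted p = 0.0425), CTSC by 0.43 (SE 0.057, adjusted p = 0.00568) and NEU1 by 0.42 (SE 0.085, adjusted p = 0.0213). CTSS, GUSB, SCARB2 and GRN were higher with CBP30 by 0.34 to 0.40, and TPP1 was lower by -0.35. IDS, GALNS and CTSB, called with 2 µM CBP30 against DMSO, were not called between the compounds at this dose. GUSB and SGSH kept their calls in 9 and GRN in 10 of 20 alternative fits, with adjusted p-values of up to 0.313, 0.315 and 0.298, and a fit of these 4 samples alone kept none. Without replicate 1 of 2 µM CBP30 the counts were 7 higher and 2 lower, and without its replicate 2 they were 17 and 3. Without replicate 1 or 2 of 2 µM I-CBP112, 1 or 2 genes were higher with CBP30, and without any 1 of the other samples 4 or 5 were.

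**Figure D4:**
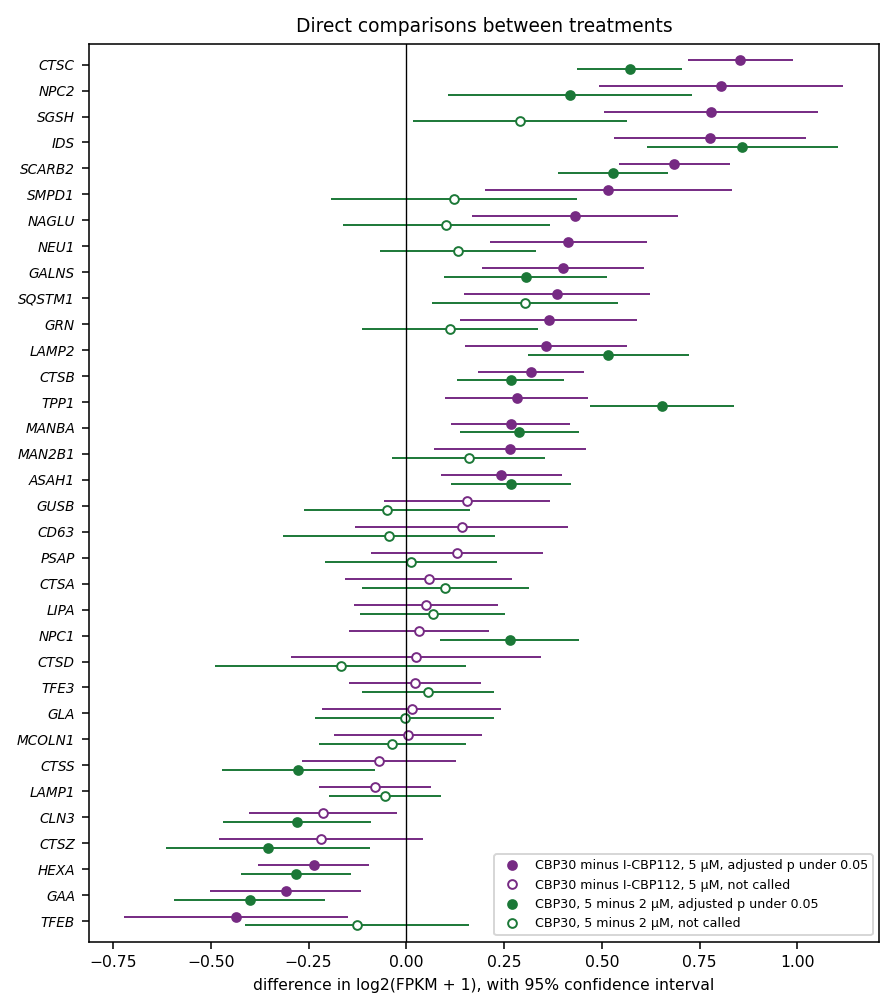
Differences in log2(FPKM + 1) for each of the 34 lysosome genes between 5 µM CBP30 and 5 µM I-CBP112 (purple) and between 5 and 2 µM CBP30 (green), with 95% confidence intervals from limma and filled points for an adjusted p under 0.05. CTSC, NPC2, IDS and SCARB2 are called higher in both comparisons, which share the 5 µM CBP30 samples, and TFEB is the lowest purple point.

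Promoters of these genes were searched for the E-box bound by TFEB and TFE3, because the regulators are members of the list. Such motifs are known from the promoters of many lysosome genes, so a higher share than over all promoters is no finding of these data. RefSeq promoter sequences (build GRCh38.p14, 250 bases before to 50 bases after each gene start) were matched for 25 of the 34 genes, 12 of the 18 that rose with 5 µM CBP30 and 13 of the others. The letters CACGTG, which read the same on both strands, occurred in 9 of the 25 (36%), against 7.43% of 27305 promoters and 10.4% of the 8650 promoters of tested genes. The longer form TCACGTG on either strand, which contains the first, occurred in 8 (32%, against 3.82% of all and 6% of tested promoters), and the CLEAR element, a palindrome that has GT before and AC after the core and so contains both, in 3 (12%, against 0.381% and 0.867%), those of GALNS, GAA and MCOLN1.

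Among the genes that rose with 5 µM CBP30, 2 of 12 held CACGTG, NEU1 and GALNS, whereas 7 of the 13 others did, namely LAMP1, CTSA, CTSD, GAA, MCOLN1, CLN3 and CD63. The 3 genes with the largest changes that had a promoter sequence, NPC2, IDS and SCARB2, did not hold these letters in this window. A match of letters describes the sequence and not binding, and the difference between the groups was not tested. The windows of 30 bases below are shown for the 2 genes that rose and hold the motif, for GAA with its CLEAR element and no call against DMSO, and for LAMP1 and CLN3, which fell. Each is written 5′ to 3′ on the strand of its gene, with the E-box core in capitals and with coordinates on GRCh37 found by exact match, and the core starts 174, 126, 76, 28 and 30 bases before the RefSeq gene start in the order shown.
GALNS, chr16:88923512-88923541, minus strand: caggcaccgcgtCACGTGacccgccgctgg
NEU1, chr6:31830707-31830736, minus strand: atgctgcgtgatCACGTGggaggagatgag
GAA, chr17:78075292-78075321, plus strand: gggaggccgcgtCACGTGacccaccgcggc
LAMP1, chr13:113951514-113951543, plus strand: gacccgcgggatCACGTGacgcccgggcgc
CLN3, chr16:28503408-28503437, minus strand: aaaacctctgagCACGTGatgggggaacac

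Further genes of the lysosome and of the pathways around it were grouped in lists and tested in the same fit. Of 30 other lysosomal hydrolases, 11 rose and 6 fell with 5 µM CBP30 (median log2 fold change 0.19), where 21.2% of all tested genes rose and 25.4% fell. SCPEP1, a serine carboxypeptidase, rose from 4.29 and 4.46 to 15.7 and 16.3 FPKM (log2 fold change 1.66, adjusted p = 8.45e-06, limma), and LGMN, the asparaginyl endopeptidase, rose by 1.295 (adjusted p = 0.000165). DPP7, a dipeptidyl peptidase, fell by 1.16 (adjusted p = 0.000367) and GALC, the galactosylceramidase, by 0.53 (adjusted p = 0.000698).

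Of 18 other membrane proteins of the lysosome, 5 rose and 4 fell, beside the 21.2% and 25.4% of all tested genes. LAPTM4B, a lysosome-associated transmembrane protein, went from 391 and 402 to 821 and 835 FPKM (log2 fold change 1.06, adjusted p = 0.000257, limma), and CD164, a sialomucin, rose by 0.61 (adjusted p = 8.41e-05). TMEM192 and MFSD1 fell by 0.35 and 0.34. Of 17 subunits of the V-ATPase, the pump that acidifies the lysosome, 4 rose and 0 fell (limma, adjusted p under 0.05). At an unadjusted p under 0.05, where no share over all tested genes was computed, 5 were higher and 0 lower. ATP6V1A, a catalytic subunit, rose by 0.77 (adjusted p = 0.000166, limma) and ATP6V0D1 by 0.42 (adjusted p = 0.0398).

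Of 16 genes that recruit or control mTORC1 at the lysosome, 2 rose and 4 fell, beside the 21.2% and 25.4% of all tested genes. The GTPase genes RRAGC and RRAGA rose by 0.50 and 0.40 (adjusted p = 0.000455 and 0.0148, limma), and LAMTOR1, the anchor of the Ragulator complex, and RPTOR, the substrate-binding subunit of mTORC1, fell by 0.49 and 0.36 (adjusted p = 0.00932 and 0.00629). Of 13 genes of mannose phosphate and other lysosomal sorting, 3 rose and 3 fell. GNPTAB, which encodes subunits of the enzyme that starts the mannose phosphate tag, rose by 0.87 (adjusted p = 0.00145) and the sorting receptor SORT1 by 0.49, while NAGPA, which uncovers the tag, and the adaptor GGA1 fell by 0.59 and 0.52.

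Of 31 tested autophagy genes, 7 rose and 6 fell with a median of 0.072. ATG5, a part of the LC3 lipidation machinery, rose by 0.54 (adjusted p = 0.000344, limma) and VPS18, a tethering subunit, by 0.36, and ATG3, the LC3-conjugating enzyme, and PIK3C3, the class III PI3-kinase, fell by 0.52 and 0.33. Of 2 tested genes among the other MiT/TFE factors and their repressor, ZKSCAN3, described as a repressor of autophagy genes, rose by 0.38 (adjusted p = 0.00382). Over all tested genes 21.2% rose and 25.4% fell. In every related list with more than 2 tested genes, the share that rose was closer to 21.2% than in the 34 lysosome genes. The share that fell was closer to 25.4% than in the 34 genes in each of them except the V-ATPase list, where none fell.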

How the data were processed

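Stranded libraries were prepared from polyadenylated RNA of K562 cells and sequenced by the study as single reads. The authors processed them with Nextpresso against hg19 (GRCh37) and deposited 1 FPKM value per gene and sample, without pooling replicates. The submitters' processing notes list TopHat2 2.0.10, Bowtie 1.0.0, SAMtools 0.1.19 and Cufflinks 2.2.1. The gene annotation and the use of strand are not given in the sources used here. Depth is known only relative to the other samples, and without counts no counting interval was computed.

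Values were transformed to log2(FPKM + 1), and the 12788 genes whose mean reached 0.5 FPKM were fitted with limma 3.58.1 in R 4.3.3, with 1 coefficient per condition over all 10 samples, empirical Bayes with a trend, and Benjamini-Hochberg adjustment over all genes tested in each of 8 comparisons. The fit was tested on simulated data. Gene positions are from GENCODE on GRCh37, and transcript length is the longest protein-coding transcript, known for 94.9% of tested genes and chosen after seeing the data. The 34 genes and the related lists were chosen with earlier results of these data known. Values in every sample are given for the 10 genes with the largest change among those called with 5 µM CBP30, those called with I-CBP112 (up to 6), TFEB, TFE3, LAMP1 and SQSTM1, and up to 4 per matched-dose comparison of the compounds. From each related list, up to 2 genes per direction among those called with 5 µM CBP30 and reaching 5 FPKM are named. Alternatives changed the pseudocount, filter, scaling, variance model, samples fitted, transcript-length trend and replicate block. The study's other experiments were not analysed here.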

Additional observations from a re-analysis of the deposited data

How the results depend on the processing

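With 2 samples per condition and no read counts, the spread between replicates limits every call, and genes near 1 FPKM such as LIPA are the least certain. With 5 µM CBP30 the counts stayed between 18 and 23 higher and 4 and 5 lower under the alternatives that kept all 10 samples or fitted the 5 µM CBP30 and DMSO samples alone. With 2 µM CBP30, genes called lower were 1 with a filter at 5 FPKM, and 4 with quantile normalization, with the length trend removed, and with the length trend removed and the replicate block. Fitting only the groups compared left 0 lower and 0 higher with 2 µM CBP30, 0 and 0 between the CBP30 doses, and 0 and 0 between the compounds at 2 µM, and it gave 2 lower with 5 µM I-CBP112. That last count was 1 with no filter, quantile normalization, no variance trend, or the length trend removed with or without the block. Removing the length trend gave 10 higher with 5 µM I-CBP112, and 2 higher with 2 µM I-CBP112 and 17 higher between the CBP30 doses, both also with the block. Without the filter, 3 were lower between the CBP30 doses, and 2 lower and 4 higher between the compounds at 2 µM, where 2 were lower also without the variance trend and with the length trend removed. The cause of these shifts was not tested.

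Between the CBP30 doses, differences that were not called changed sign with the length trend removed, with or without the block: GLA to 0.25, MCOLN1 to 0.17 and CD63 to 0.28. CD63 was also 0.22 with quantile normalization, and it ranged from -0.25 to 0.16 over the fits that left out a sample, the highest without replicate 1 of 2 µM CBP30.

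Leaving out each sample in turn gave 2 to 7 lower and 17 to 22 higher with 5 µM CBP30, 0 to 7 and 7 to 22 with 2 µM CBP30, 0 to 6 and 0 to 12 with 5 µM I-CBP112, 0 to 1 and 0 to 3 with 2 µM I-CBP112, 0 to 9 and 4 to 17 between the CBP30 doses, 0 to 0 and 0 to 1 between the I-CBP112 doses, 0 to 5 and 5 to 19 between the compounds at 5 µM, and 0 to 3 and 1 to 17 at 2 µM. A condition left with 1 sample was assumed to vary like the others.

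Same-numbered replicates did not deviate together (r from -0.0681 to 0.0939 between conditions). This shows no shared effect of replicate number, and it cannot tell whether same-numbered samples were handled together. With the replicate block, 18 genes were higher and 4 lower with 5 µM CBP30, and 7 were higher between the compounds at 2 µM.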
